A study of Mus musculus with 6 samples.

Results

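The intrinsic, or mitochondrial, pathway of apoptosis was followed in cochlear RNA through 9 genes, chosen by symbol as its core components: the pro-survival genes Bcl2, Bcl2l1 and Mcl1, the effectors Bax and Bak1, the BH3-only genes Bid and Bcl2l11, and the apoptosome genes Apaf1 and Casp9. The files hold 24411 gene symbols, and all 9 genes were among the 15303 with enough counts to be tested. Kir2.1-OE mice carried Otof rtTA+/− with Kir2.1+/− (tetO-Kir2.1-IRES-tau-lacZ), in which doxycycline (DOX) induces Kir2.1, an inward rectifier potassium channel. Their control littermates carried Otof rtTA+/− with Kir2.1+/+, so both groups held the rtTA driver. Both were exposed to DOX, which mothers had in their drinking water at 0.5 mg/ml during pregnancy and nursing. Both groups were dissected at P9. Each group has 3 libraries, each from a pool of 8 cochleae of 4 mice, so the pool is the replicate and differences between single mice were not seen. The Otof promoter drives the transgene mainly in inner hair cells (IHCs), which are a minority of the cells in these pools. In such bulk tissue fewer cells of a type and less RNA per cell cannot be told apart.

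In this pathway the mitochondrial outer membrane is the point of decision. BAX and BAK form the pores that release cytochrome c, BCL2, BCL-XL and MCL1 hold these effectors back, and the BH3-only proteins BID and BIM engage both sides. Released cytochrome c assembles APAF1 and procaspase 9 into the apoptosome, which activates the executioner caspases. Much of this control acts on proteins, through cleavage, phosphorylation, relocation and turnover, and RNA counts do not measure it. The comparison of Kir2.1-OE with control asks whether RNA of the cell death machinery differed at an age when, as the study describes, stereocilia loss has begun in some IHCs.

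At P9 none of the 9 genes differed by more than 1.5-fold at an adjusted p-value under 0.05, and most differed little. Bax RNA in Kir2.1-OE was at 0.703 of the control level and Bcl2 RNA at 1.23 times it. Both passed the adjusted p threshold without reaching 1.5-fold. Genes were called at that p threshold with a fold change above 1.5, using the quasi-likelihood test of edgeR adjusted over all genes tested, and log2 fold changes are given as Kir2.1-OE over control. Among all genes 15.5% were called higher and 5.08% lower, against 0 of 9 here in either direction. DESeq2's Wald test and limma-voom also called 0 of the 9. At an unadjusted p-value under 0.05 edgeR passed 2 of the 9, and of all 15303 genes tested 4646 as higher and 4131 as lower. With the adjusted p alone, 27.3% of all genes were higher and 23.5% lower, against 1 (Bcl2) and 1 (Bax) of the 9. The median absolute log2 fold change was 0.12 over the 9 genes and 0.34 over all genes tested. The 95% confidence interval of the log2 fold change lay within 1.5-fold in both directions for 7 of the 9 genes, and for 44.6% of all genes. The exceptions were Bax, with a lower bound of −0.66, and Bid, with an upper bound of 0.59.

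Groups of 3 libraries did not overlap for 4 of the 9 genes, 2 of them higher in Kir2.1-OE (Bcl2 and Bcl2l11) and 2 lower (Bax and Mcl1), while 61.6% of all genes tested did not overlap. For 1 gene taken alone, the smallest p-value that exact permutation of 3 and 3 pools allows is 0.10. The labels use the same replicate numbers in both groups, and the study describes the 2 genotypes as littermates. Neither states that pools with the same number share litters. The main test took the pools as unpaired, so its p-values measure the spread between pools only.

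**Figure D1:**
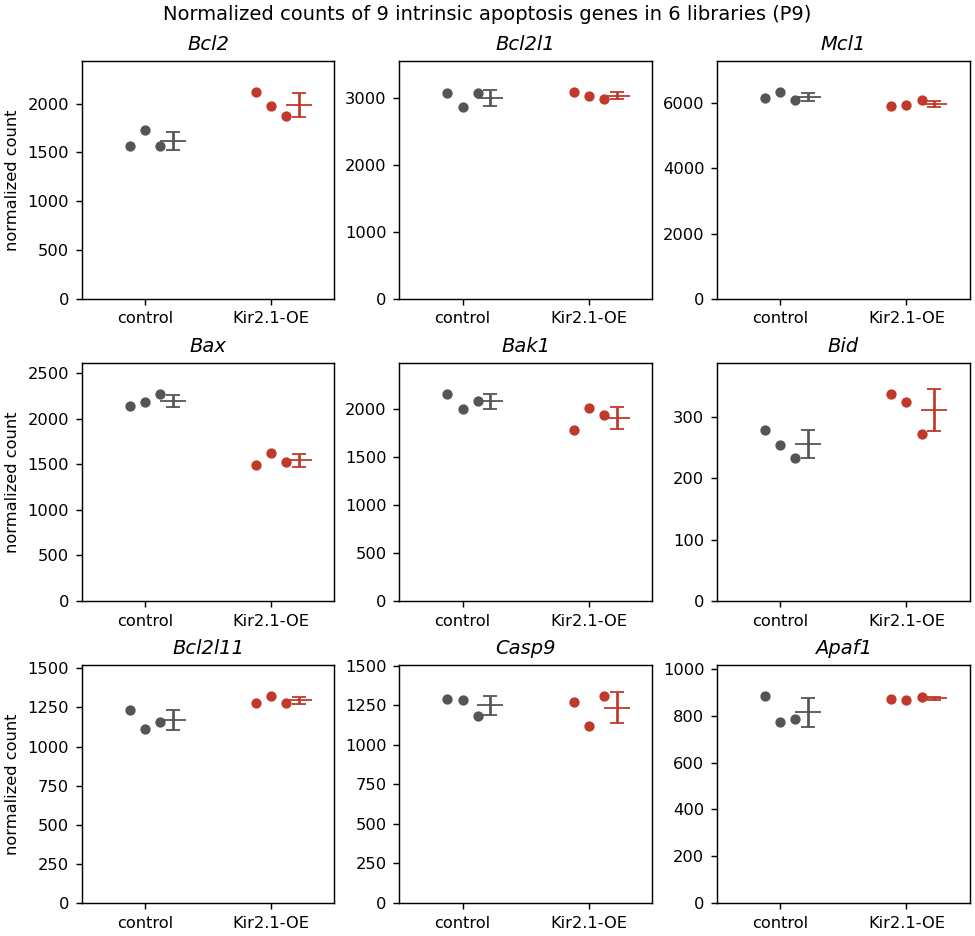
Normalized counts (vertical axes, each from 0) of the 9 genes in the 3 control and 3 Kir2.1-OE libraries at P9. Points are libraries, the horizontal line is the mean and the bars are the SD. Bax is lower and Bcl2 higher in every Kir2.1-OE library than in every control library, while the groups lie close together for Bcl2l1, Casp9 and Apaf1.

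Among the pro-survival genes, Bcl2 was the one that passed the adjusted p threshold. BCL2 sits on the outer mitochondrial membrane and the endoplasmic reticulum and binds BAX and BH3-only proteins. Its normalized counts, scaled to a common library size, were 2119, 1976 and 1872 in the Kir2.1-OE libraries (replicates 1, 2 and 3 here and in every list of values that follows) and 1564, 1728 and 1563 in the control libraries. The groups did not overlap, and Kir2.1-OE replicate 1 was the highest. The means were 1989 ± 124 and 1619 ± 94.9 (SD, n = 3 each), a log2 fold change of 0.30 (SE 0.0773, 95% interval 0.12 to 0.47, edgeR adjusted p = 0.0105). Without Kir2.1-OE replicate 1 the adjusted p was 0.0514. With offsets for transcript length and GC content, described below, the direction turned, to −0.15 (edgeR adjusted p = 0.0942). In annotation 558 of its 9157 exonic bases are shared with D630008O14Rik on the opposite strand.

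Bcl2l1 encodes BCL-XL, the pro-survival protein prominent in neurons. It had normalized counts of 3082, 3019 and 2979 in Kir2.1-OE and 3062, 2856 and 3062 in control. The Kir2.1-OE values lay inside or just above the control range. The means of 3027 ± 52.1 and 2993 ± 119 (SD, n = 3 each) gave a log2 fold change of 0.02 (SE 0.0642, 95% interval −0.13 to 0.16, edgeR adjusted p = 0.852). Its sign turned under upper quartile scaling (−0.07), with offsets from the median transcript (−0.00164) and with some single libraries left out.

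Mcl1 encodes a short-lived pro-survival protein. It gave the highest counts of the 9 genes, 5910, 5932 and 6092 in Kir2.1-OE and 6161, 6343 and 6108 in control. The groups did not overlap, but the nearest libraries were 6092 and 6108. The means were 5978 ± 99.5 and 6204 ± 123 (SD, n = 3 each), and the log2 fold change of −0.05 (SE 0.0634, 95% interval −0.20 to 0.09) did not pass the test (edgeR adjusted p = 0.508).

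Bax had the largest absolute log2 fold change of the 9 genes, and the lowest p. BAX is a largely cytosolic protein that moves to mitochondria when activated, and its gene is a textbook target of p53. Normalized counts were 1490, 1625 and 1524 in Kir2.1-OE and 2142, 2186 and 2272 in control. The highest Kir2.1-OE library was far below the lowest control library. The means were 1547 ± 69.9 and 2200 ± 66.1 (SD, n = 3 each), a log2 fold change of −0.51 (SE 0.0684, 95% interval −0.66 to −0.35, edgeR adjusted p = 4.26e-04). With the offsets Bax was still lower, by a log2 fold change of −0.27 (edgeR adjusted p = 0.00884). Of its 1576 exonic bases, 192 are shared with Gm45808 on the same strand. It stayed under 1.5-fold in every alternative but upper quartile scaling, where the log2 fold change was −0.60 and Bax was called lower.

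The upstream sequences of Bax and Bcl2 are shown because these members with opposite roles were the ones to pass the p threshold and because p53 is known to act on Bax. Each is the 250 bases before the gene's RefSeq start on GRCm38.p6, 5′ to 3′ on the gene's strand, with GGGCGG, the core of the GC box, in capitals on either strand (CCGCCC marks the other strand). The Bax window is chr7:45466899-45467148 and the Bcl2 window chr1:106714291-106714540, both on the minus strand.
Bax: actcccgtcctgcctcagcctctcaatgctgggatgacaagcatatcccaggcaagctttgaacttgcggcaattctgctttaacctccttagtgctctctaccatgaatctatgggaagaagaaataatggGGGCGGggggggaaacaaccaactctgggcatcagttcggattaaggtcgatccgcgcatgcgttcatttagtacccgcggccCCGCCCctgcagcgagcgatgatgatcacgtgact
Bcl2: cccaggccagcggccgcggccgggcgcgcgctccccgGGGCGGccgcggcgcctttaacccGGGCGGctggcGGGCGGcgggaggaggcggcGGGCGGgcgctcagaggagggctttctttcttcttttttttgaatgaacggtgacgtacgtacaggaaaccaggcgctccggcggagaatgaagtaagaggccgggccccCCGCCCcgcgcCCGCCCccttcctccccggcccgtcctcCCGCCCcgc
GGGCGG occurred 2 times in the Bax window and 7 times in the Bcl2 window, and at least once in 32.74% of 32851 promoter windows of the same length. GC content was 54% for Bax and 74.8% for Bcl2, beside a median of 52.4% over all windows. The letters of a p53 half-site were present in the Bax window, as aggcaagctt starting 201 bases before the start, and not in the Bcl2 window. A p53 half-site was found in 7.126% of all windows. The E-box CANNTG was found 1 time for Bax, 0 times for Bcl2 and in 66.22% of all windows. Letters that match a motif are not evidence that a factor binds there.

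Bak1, the other effector, encodes a protein resident in the mitochondrial outer membrane. It had normalized counts of 1784, 2013 and 1944 in Kir2.1-OE and 2160, 2007 and 2088 in control. Kir2.1-OE replicate 2 lay just above control replicate 2, so the groups overlapped. The means were 1914 ± 117 and 2085 ± 76.5 (SD, n = 3 each), with a log2 fold change of −0.12 (SE 0.0723, 95% interval −0.29 to 0.04, edgeR adjusted p = 0.181). In annotation, 614 of its 2407 exonic bases lie over exons of Ggnbp1 on the opposite strand, a gene with 29.9 and 44.5 mean normalized counts in Kir2.1-OE and control. The strand setting of the counting is not given in the sources used here.

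Bid encodes the BH3-only protein that caspase 8 cleaves, joining the death receptor pathway to mitochondria. It was the lowest of the 9 in counts, with 337.7, 324.8 and 272.9 in Kir2.1-OE and 278.9, 255.3 and 233.1 in control. Kir2.1-OE replicate 3 was below control replicate 1, so the groups overlapped. The means were 311.8 ± 34.3 and 255.8 ± 22.9 (SD, n = 3 each), and the log2 fold change of 0.29 (SE 0.136, 95% interval −0.02 to 0.59) did not pass the test (edgeR adjusted p = 0.105). With the offsets it was 0.42 (edgeR adjusted p = 0.0413). Of its 3550 exonic bases, 628 are shared with Bcl2l13 on the opposite strand, whose mean normalized counts were 2246 and 2344, so reads of Bcl2l13 may be part of the Bid values.

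Bcl2l11 encodes BIM, a BH3-only protein regulated by survival factor signalling in neurons. Its counts were 1281, 1322 and 1281 in Kir2.1-OE and 1237, 1112 and 1156 in control. All 3 Kir2.1-OE libraries were above all 3 control libraries, by a small margin. The means of 1295 ± 23.7 and 1169 ± 63.3 (SD, n = 3 each) gave a log2 fold change of 0.15 (SE 0.0736, 95% interval −0.02 to 0.31, edgeR adjusted p = 0.120), which became −0.09 with the offsets from the longest transcript and 0.08 with those from the median transcript.

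The apoptosome genes did not pass the test. Casp9, which encodes the initiator caspase of the pathway, had counts of 1274, 1121 and 1308 in Kir2.1-OE and 1288, 1283 and 1182 in control. The control range lay inside the Kir2.1-OE range, with means of 1234 ± 99.3 and 1251 ± 60.01 (SD, n = 3 each) and a log2 fold change of −0.02 (SE 0.0842, 95% interval −0.21 to 0.17, edgeR adjusted p = 0.862). Apaf1, the scaffold that binds cytochrome c, had counts of 874.5, 869.4 and 883.3 in Kir2.1-OE and 884.9, 774.1 and 786.8 in control. Control replicate 1 was above all Kir2.1-OE libraries and the other control libraries were below them. The means were 875.7 ± 7.04 and 815.3 ± 60.6 (SD, n = 3 each), a log2 fold change of 0.10 (SE 0.0839, 95% interval −0.09 to 0.29, edgeR adjusted p = 0.331). With the offsets from the longest transcript Apaf1 turned to −0.29 (edgeR adjusted p = 0.0295), and with those from the median transcript it did not, at 0.06 (edgeR adjusted p = 0.556).

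Bax relative to Bcl2, a ratio often read as a balance of opposing members, was computed in each library as a description with no test. Bax counts per Bcl2 count were 0.703, 0.822 and 0.814 in Kir2.1-OE and 1.37, 1.26 and 1.45 in control. The groups did not overlap: Bax counts were below Bcl2 counts in every Kir2.1-OE library and above them in every control library. These counts are not divided by transcript length, so they do not order the levels of the 2 genes. Per length of the longest transcript, mean Bax was above mean Bcl2 in both groups. The values were 102 and 20.1 in Kir2.1-OE and 127 and 14.3 in control. On the log2 scale the means were −0.36 ± 0.126 and 0.44 ± 0.1004 (SD, n = 3 each), a difference of −0.81. With the length and GC offsets the log2 ratios were −0.08, −0.00453 and 0.03 in Kir2.1-OE and 0.12, 0.06 and 0.13 in control, and the difference shrank to −0.12. Offsets from the median transcript left the fitted log2 fold changes further apart, at −0.41 for Bax and −0.07 for Bcl2. Bax has the shortest and Bcl2 the longest of the 9 longest transcripts, 1100 and 7191 nucleotides. The GC content of these transcripts also differs, at 63.5% for Bax and 46.3% for Bcl2. The offsets act on length and GC content together, and the part of each was not tested.

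**Figure D2:**
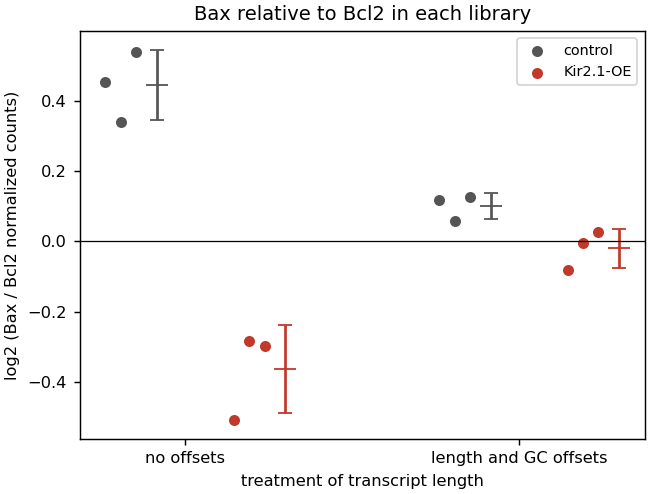
The log2 ratio of Bax to Bcl2 normalized counts (vertical axis) in each library, without and with the length and GC offsets. Points are libraries, the horizontal lines are means and the bars are the SD. The difference between the group means is −0.81 without offsets and −0.12 with them.

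In these libraries fold changes moved with transcript length across all genes, which bears on every value above. Among genes whose longest annotated transcript is under 1000 nucleotides the median log2 fold change was −0.50 over 656 genes, with 30.8% called lower and 1.37% higher. Among 884 genes over 8000 nucleotides it was 0.81, with 63.9% called higher and 0.679% lower. For 4035 genes of 1000 to 2500 nucleotides, the class of Bax, Bak1 and Bid, the median was −0.25. For 7046 genes of 2500 to 5000 nucleotides, the class of Bcl2l1, Mcl1 and Casp9, it was 0.03. For 2571 genes of 5000 to 8000 nucleotides, the class of Bcl2, Bcl2l11 and Apaf1, it was 0.42. The Spearman correlation of length with log2 fold change was 0.557 across 15192 genes and 0.683 across the 9. That of transcript GC content with log2 fold change was 0.122 across the same genes and −0.733 across the 9. These are descriptions, since genes are not independent replicates and share the libraries.

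A fit with an offset per gene and library, from a smooth trend of each library's log2 ratio on length (the longest annotated transcript) and GC content, was set beside the main one. It called 0 of the 9 genes, against 6.87% of all genes higher and 2.96% lower. With the adjusted p alone it passed 1 of the 9 as higher (Bid) and 2 as lower (Bax and Apaf1), against 16% of all genes higher and 16.7% lower. Bcl2, Bcl2l11 and Apaf1, the members with the longest transcripts, changed from positive to negative log2 fold changes. Bcl2l1, Mcl1 and Bak1 were at 0.01, −0.04 and −0.12. The 95% interval lay within 1.5-fold for 8 of the 9 genes and for 59.1% of all genes. These shifts depended on the transcript taken as the gene's length. With offsets from the median annotated transcript Bcl2 turned (−0.07), and Bcl2l11 (0.08) and Apaf1 (0.06) kept their sign. In that fit Mcl1 was at −0.22 (edgeR adjusted p = 0.0203) and Bak1 at −0.28 (edgeR adjusted p = 0.0174). Bax was at −0.41 (edgeR adjusted p = 0.00106) and Bid at 0.48 (edgeR adjusted p = 0.0209), and 0 of the 9 genes were called. Whether the length trend arose in the tissue or in the libraries was not tested.

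**Figure D3:**
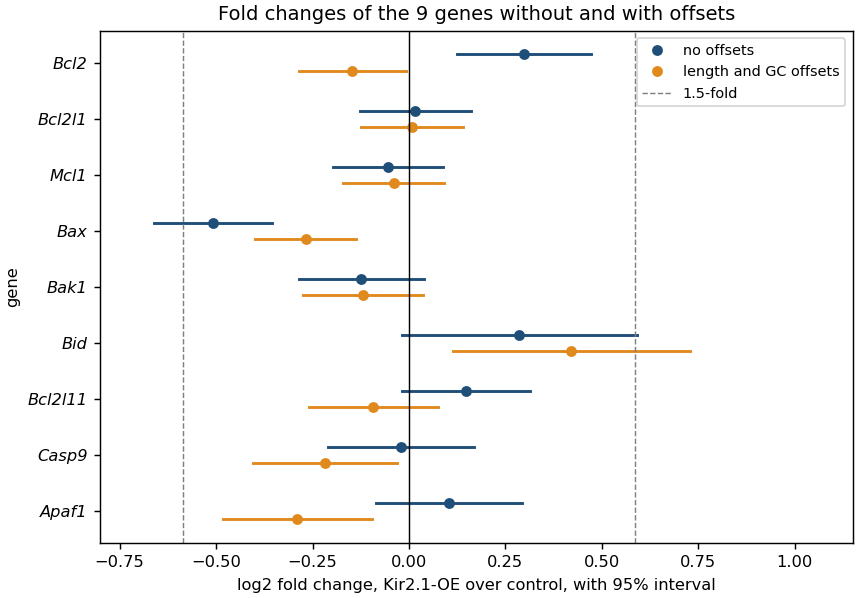
Log2 fold changes (horizontal axis, Kir2.1-OE over control) of the 9 genes with 95% confidence intervals, without offsets in blue and with length and GC offsets from the longest transcript in orange. Dashed lines mark 1.5-fold. All 9 points lie inside the dashed lines under both, and Bax is the one gene whose interval stays below 0 in each.

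**Figure D4:**
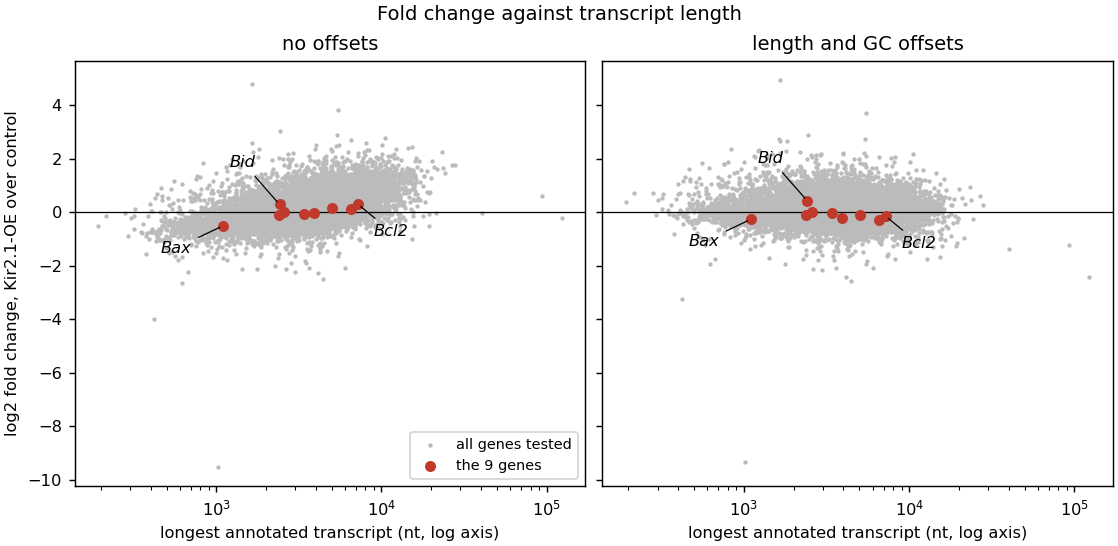
Log2 fold change (vertical axis) against the longest annotated transcript (horizontal axis, nucleotides on a log scale) for all genes tested with a length, without offsets on the left and with them on the right. Red points are the 9 genes. The grey cloud rises with length on the left and is flat for most genes on the right.

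Per length, Bax and Mcl1 stood at the top of the 9 genes. Levels are counts divided by the longest annotated transcript and scaled to 1 common total per library, and only genes within a group are compared on this scale, since the median gene was 0.20 higher (log2) in Kir2.1-OE on it. In control libraries Bax was the highest, at 127 ± 3.68, followed by Mcl1 at 115 ± 3.82, and the ranges of these neighbours did not overlap. Bcl2l1 was at 74.1 ± 2.002, Bak1 at 55.5 ± 1.498 and Casp9 at 20.4 ± 1.14, each separated from its neighbours. Bcl2l11 at 14.7 ± 0.679 and Bcl2 at 14.3 ± 1.03 overlapped. Apaf1 at 7.88 ± 0.540 and Bid at 6.73 ± 0.613 were the lowest (SD, n = 3 each).

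In Kir2.1-OE libraries the level of Mcl1 per length, 127 ± 3.57, was above that of Bax, 102 ± 2.72. Bcl2l1 was at 85.7 ± 4.07 and Bak1 at 58.2 ± 1.80. Casp9 at 23.1 ± 2.28, Bcl2 at 20.1 ± 1.83 and Bcl2l11 at 18.7 ± 0.452 each overlapped with the next, as did Apaf1 at 9.68 ± 0.316 and Bid at 9.40 ± 1.22 (SD, n = 3 each). With the median instead of the longest annotated transcript, Mcl1 and Bax kept the top ranks in both groups, and 5 ranks differed in Kir2.1-OE and 4 in control. Bcl2 was then the lowest of the 9 in both groups, and Bid was at rank 7.

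The genes whose counts varied most like those of Bcl2 over the 6 libraries, by Pearson correlation of log2 normalized counts among 13644 genes, were Rbm19 (0.998), Dlgap4 (0.997) and Plekhg3 (0.997). For Bax they were Ift43 (0.998), Caap1 (0.998) and Oaz1 (0.997). Both sets follow the split between the groups, which all 6 libraries share.

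The wider machinery was described through 6 lists with 76 further genes, 70 of them tested, of which 5 were called higher and 2 lower. Over all genes the shares were 15.5% and 5.08%, against which the called genes of each list below are to be read. For counts by the adjusted p alone the shares were 27.3% higher and 23.5% lower. At an unadjusted p under 0.05, 4646 of 15303 genes were higher and 4131 lower. In the rest of the BCL2 family 0 of 13 tested genes were called. DESeq2's Wald test and limma-voom also called 0, and with the adjusted p alone edgeR had 1 higher and 5 lower (1 and 5 at an unadjusted p under 0.05). Without Kir2.1-OE replicate 2 or control replicate 2 the count was 1, with Bad at −0.65 and −0.62. The median log2 fold change was −0.13, beside 0.01 over all genes. Bcl2l2, the pro-survival gene for BCL-W, had 2343, 2084 and 2050 normalized counts in Kir2.1-OE and 1645, 1666 and 1765 in control, with a log2 fold change of 0.35 (edgeR adjusted p = 0.00418). Bad, a BH3-only gene inactivated by survival kinases, had 1291, 1674 and 1503 against 2239, 1893 and 2330, with −0.53 (edgeR adjusted p = 0.00356). Neither group of values overlapped, and neither gene reached 1.5-fold. Bik, a BH3-only gene of the endoplasmic reticulum, was at −0.40 (edgeR adjusted p = 0.00833), and Bmf, which senses cytoskeletal detachment, at 0.05 (edgeR adjusted p = 0.612). With the offsets Bcl2l2 was at 0.18 (edgeR adjusted p = 0.0618), Bik at −0.16 (edgeR adjusted p = 0.203) and Bad at −0.31 (edgeR adjusted p = 0.0344). With those from the median transcript Bcl2l2 (0.45) and Bik (−0.32) passed the p threshold.

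Of 14 genes of mitochondrial release and apoptosome control, 2 were called higher and 0 lower by edgeR, with a list median of −0.21. With the adjusted p alone 2 were higher and 7 lower. Birc6, a giant inhibitor of apoptosis protein, rose from 1574 ± 68.3 to 3319 ± 363 (SD, n = 3 each), a log2 fold change of 1.08 (edgeR adjusted p = 1.27e-04). Its longest transcript is 15768 nucleotides and the offsets from that length brought it to 0.13. With offsets from the median transcript it was at 1.09 and still called (edgeR adjusted p = 1.96e-04). Opa1, which keeps the cristae of mitochondria closed, was called at 0.61 (edgeR adjusted p = 0.00102). That call was lost with the offsets (0.34), under upper quartile scaling (0.52) and without Kir2.1-OE replicate 1 (0.51), control replicate 1 (0.56) or control replicate 3 (0.58). Vdac3, a channel of the outer membrane, was at −0.55 (edgeR adjusted p = 0.00133) and Birc2, an inhibitor of apoptosis gene, at −0.44 (edgeR adjusted p = 0.00379), both under 1.5-fold. Vdac3 was called lower without Kir2.1-OE replicate 2 (−0.59) or 3 (−0.65), and under upper quartile scaling (−0.64). Chosen after their values were seen, Cycs, the gene for cytochrome c, was at −0.40 (edgeR adjusted p = 0.0113) and Diablo, whose protein relieves the block on caspases, at −0.40 (edgeR adjusted p = 9.77e-04). With the offsets Cycs was at −0.20 (edgeR adjusted p = 0.118) and Diablo at −0.47 (edgeR adjusted p = 0.00166).

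Among 10 executioner caspases and their substrates 2 were called higher and 1 lower, with a list median of 0.09. Casp6, an executioner caspase, was at −0.46 (edgeR adjusted p = 0.00609), under 1.5-fold. The genes called higher were the caspase substrates Rock1, a kinase acting on actomyosin, at 1.23 (edgeR adjusted p = 1.79e-04), and Acin1, a nuclear protein of chromatin condensation and splicing, at 1.05 (edgeR adjusted p = 8.68e-04). Both were also called with the offsets.

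Of 10 tested genes of the extrinsic, death receptor pathway 1 was called higher and 0 lower by edgeR, with a list median of 0.14. This was Tnfsf10, the gene for the ligand TRAIL, with 165.3, 90.9 and 157.6 counts in Kir2.1-OE and 72.2, 73.6 and 103.8 in control, which overlapped. Its log2 fold change was 0.73 (edgeR adjusted p = 0.0436). Tnfsf10 was not called without Kir2.1-OE replicate 1 or 3 or control replicate 1 or 2, with log2 fold changes between 0.56 and 0.65. Nor was it called with the offsets, with the replicate block, under upper quartile scaling or by limma-voom. Cflar, which blocks caspase 8, was at 0.45 (edgeR adjusted p = 0.00243), and Tradd, an adaptor of the TNF receptor, at −0.57 (edgeR adjusted p = 0.00239), both under 1.5-fold. With the offsets Cflar was at 0.11 (edgeR adjusted p = 0.342) and Tradd at −0.40 (edgeR adjusted p = 0.0195). With those from the median transcript Cflar was at 0.55 (edgeR adjusted p = 0.00134). Without Kir2.1-OE replicate 2 the list had 2 calls, with Tradd also called lower (−0.66). Tradd was also called lower without control replicate 1 (−0.59) and under upper quartile scaling (−0.66). Fas, a death receptor, was at −0.25 (edgeR adjusted p = 0.437), and its ligand gene Fasl had 0 counts in all 6 libraries.

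None of the 15 tested p53 pathway genes was called by edgeR, by DESeq2's Wald test or by limma-voom, and with the adjusted p alone edgeR had 2 higher and 3 lower (3 and 5 at an unadjusted p under 0.05). The list median was 0.02. Without Kir2.1-OE replicate 3 the count was 1 and without control replicate 2 it was 2, Perp among them at −0.68 and −0.63. Zmat3 at 0.50 (edgeR adjusted p = 6.16e-04) and Mdm4, an inhibitor of p53, at 0.46 (edgeR adjusted p = 0.00139) had the highest values among those with a mean of at least 50 counts. With the offsets they were at −0.03 and 0.12, and with those from the median transcript at 0.00865 and 0.50. Perp, a p53 target of cell junctions, was at −0.56 (edgeR adjusted p = 0.00241) and Sesn1 at −0.24 (edgeR adjusted p = 0.0204). Chosen after their values were seen, Trp53 itself was at 0.04 (95% interval −0.11 to 0.19) and Cdkn1a, its most used reporter, at 0.10 (95% interval −0.10 to 0.30).

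Of 8 tested genes of inflammatory caspases and lytic death 0 were called higher and 1 lower by edgeR, with a list median of 0.00150. Pycard, the inflammasome adaptor ASC, fell from 334.9 ± 18.9 to 213.3 ± 8.39 (SD, n = 3 each). Its log2 fold change was −0.65 (edgeR adjusted p = 0.00187), and it was also called lower with the offsets. Casp1, chosen after its values were seen, was called higher with the offsets (1.10, edgeR adjusted p = 0.0181). Without them Casp1 was at 0.67 (edgeR adjusted p = 0.0785), with a mean of 26.2 normalized counts. The others named by the rule, Ripk3 at 0.01, Casp12 at −0.01 and Gsdmd at −0.16, did not pass (edgeR adjusted p = 0.968, 0.964 and 0.442).

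**Figure D5:**
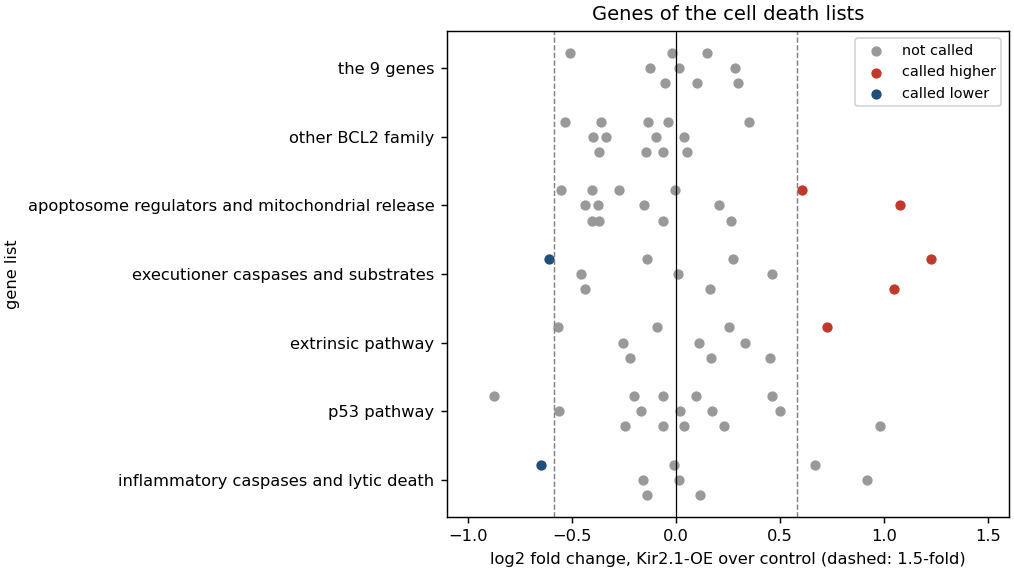
Log2 fold changes (horizontal axis, Kir2.1-OE over control) of the 9 genes and of the tested genes of 6 cell death lists, 1 point a gene. Red points were called higher, blue points lower and grey points not called, and dashed lines mark 1.5-fold. Of the 70 list genes 5 are red and 2 blue, and 0 of the 9 genes are coloured.

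Total counts were 35430940 to 38193109 in Kir2.1-OE and 37063812 to 41205047 in control libraries. Kcnj2, which encodes Kir2.1, had 3612, 3813 and 2213 normalized counts in Kir2.1-OE and 235.8, 228.1 and 226.0 in control, as the labels have it. All 4 IHC markers had counts in every library, and of 15 IHC, shared and outer hair cell markers 5 were called higher and 0 lower, beside 15.5% and 5.08% of all genes. With the adjusted p alone Cib2 (−0.51), Lhfpl5 (−0.56) and Chrna10 (−0.45), chosen after their values were seen, were lower. By the same rule Otof (0.76), Tbx2 (0.32), Myo7a (1.17), Calb2 (0.68), Slc26a5 (0.62) and Ikzf2 (0.60) were higher. Over all genes that rule had 27.3% higher and 23.5% lower. With the offsets Cib2, Otof, Tbx2 and Ikzf2 no longer passed it, and 2 of the 15 were called higher. Markers of other tissue moved with the groups. Neuron markers were called higher for 4 of 6 genes, with summed normalized counts of 13827 to 35244 in Kir2.1-OE and 6877 to 10745 in control. Cartilage and bone markers were called higher for 2 of 5, at 644078 to 775595 against 287347 to 401837. The 2 were the cartilage genes Col2a1 (1.02) and Acan (1.54), and the bone genes Sp7, Bglap and Ibsp were not called. Col2a1 made up most of these sums, with means of 574259 and 283892. With the offsets 1 of the 5 was called, Acan. Erythrocyte markers were called lower for 3 of 5, at 10855 to 13789 against 17918 to 44665. Control replicate 1 stood apart, with 29799 Hba-a1 counts against 10560 and 12429 in the other control libraries. With the offsets 0 of these 5 genes were called, while the count of neuron markers stayed at 4. Macrophage markers were called for 0 of 9 genes by edgeR, at 8778 to 9224 against 7908 to 8560. By the adjusted p alone 3 were higher and 1 lower, and likewise 3 and 1 at an unadjusted p under 0.05. Of all 15303 genes tested that unadjusted rule passed 4646 as higher and 4131 as lower. The part of these cell types in the values of the 9 genes was not tested.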

How the data were processed

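RNA of cochlear tissue at P9 was measured in 6 libraries, 3 per group, numbered as the labels give (the column header of control replicate 1 carries the number 4). The authors enriched poly(A) RNA, quantified reads against mm10 with Salmon, and deposited expected counts per gene symbol (estimated counts that need not be whole), unscaled for length or depth. Columns of per-sample values not used: 0. The deposited expected counts were rounded to whole numbers. The main test was that of edgeR 4.0.16, run in R 4.3.3 (TMM, filterByExpr, quasi-likelihood test, Benjamini-Hochberg over 15303 genes). Calls needed an adjusted p under 0.05 and a fold above 1.5.

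Normalized counts are counts scaled by TMM library sizes. Transcript lengths and GC content came from the longest transcript in GENCODE vM21. Of the symbols, 23376 matched directly and 650 through an older symbol, and 385 did not match. Offsets used a loess trend with a span of 0.4. Alternatives used DESeq2 1.42.0, limma-voom (limma 3.58.1), other scalings and filters, offsets, a replicate block and each library left out. The edgeR model was checked on simulated data.

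Between 6.69% and 7.29% of values were not whole before rounding. Replicates were distinct: their chi-square per degree of freedom lay between 16.3 and 32.4. The members, the lists and the tests were chosen with earlier results of these data known. Named genes were the 9 members, Kcnj2, the 2 highest and 2 lowest log2 fold changes of each list at a mean of at least 50 normalized counts, and the 3 genes most correlated with Bcl2 and with Bax. Gsdme was listed but had no matching symbol, and a result the rule named is not reported here.

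The p53 half-site was searched as its published 10-base consensus on both strands. Marker lists for supporting cells, glia and fibrocytes were also counted: 1 higher and 1 lower of 7, 1 and 0 of 5, and 1 and 0 of 4.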

Additional observations from a re-analysis of the deposited data

How the results depend on the processing

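All 9 genes stayed uncalled under every alternative except upper quartile scaling, which called Bax lower, and the rule without a fold threshold (1 higher, 1 lower). Of the 162 log2 fold changes of the 9 genes under 18 alternatives, 145 kept direction and side, 14 reversed and 3 passed the rule anew. Bax kept its sign in all, between −0.60 and −0.27, with an adjusted p under 0.05 in 16 of 16 fits. Bcl2 ranged from −0.15 to 0.35 and passed in 12 of 16. Upper quartile scaling shifted the median of all genes by −0.0896: 1378 genes were called lower and 57.9% of calls were higher (75.2% in the main scaling), 1 gene each of the other BCL2 family and the p53 list was called, and Bcl2l1 (−0.0737), Bmf (−0.0387) and Ripk3 (−0.0739) reversed. Length and GC offsets gave 1052 higher and 453 lower calls overall. The list counts became 1 (other BCL2 family), 0 (mitochondrial release), 0 (extrinsic) and 2 (inflammatory). Bcl2 (−0.15), Bcl2l11 (−0.0925), Apaf1 (−0.29), Bmf (−0.30), Fas (0.12), Zmat3 (−0.0288), Casp12 (0.28) and Gsdmd (0.0495) reversed, and the log2 ratio of Bax to Bcl2 differed by −0.12. Offsets with the replicate block gave 777 and 377, lists of 1, 0 and 0, and Bcl2 −0.15, Bcl2l11 −0.0913, Apaf1 −0.29, Bmf −0.30, Fas 0.11, Zmat3 −0.0290, Casp12 0.28 and Gsdmd 0.0552. Offsets from the median transcript gave list counts of 1 (release), 0 (extrinsic), 1 (p53) and 2 (inflammatory), with Bcl2 at −0.0696, Bcl2l1 at −0.00164 and Casp12 at 0.15 reversed; Bcl2l11 and Apaf1 kept their sign. Deviations from the group mean correlated at −0.20, −0.30 and −0.27 between same-numbered pools, and at 0.04 to 0.21 between differently numbered ones. Deviations within a group of 3 are tied to each other, and control replicate numbers may not be the original ones. These correlations therefore cannot decide whether pools were paired. The replicate block alone gave 2220 higher and 718 lower calls, moved the extrinsic count to 0 and changed no other list count. With single libraries left out, the counts ranged from 1 to 3 (release), 0 to 2 (extrinsic), 0 to 1 (other BCL2 family) and 0 to 2 (p53), Bcl2l1 from −0.0167 to 0.0330, Casp9 from −0.0775 to 0.0200, Bmf from −0.0242 to 0.0786, Casp12 from −0.18 to 0.0786 and Ripk3 from −0.19 to 0.22. limma-voom gave an extrinsic count of 0. Without the fold threshold 4184 genes were higher and 3590 lower, with list counts of 6 (other BCL2 family), 9 (release), 5 (executioner), 4 (extrinsic) and 5 (p53). glmTreat against a log2 fold change of 0.6 gave 832 and 57, with 1 (release), 0 (extrinsic) and 0 (inflammatory). The cause of these shifts was not tested. Of the 9 genes Bid had the fewest counts and the largest SE (0.136).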
